A study of Mus musculus with 6 samples.

Results

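Sterol synthesis, uptake and regulation is represented here by 31 genes, picked by name from the 49315 genes of the deposited table: 19 enzymes that build sterols, 5 regulators of the SREBP (sterol regulatory element-binding protein) system, 3 genes of sterol transport inside the cell, and 4 genes of the liver X receptor (LXR) system and sterol export. All 31 were found and all 31 passed the filter on low values. The names were chosen with the differences between the genotypes in these 6 libraries already known, so those differences, and the p-values beside them, describe the fit and support nothing on their own. RNA came from primary fibroblasts of mouse embryos at E13.5, taken at passage 0 after 2 days in DMEM with 10% fetal bovine serum. One group of 3 libraries was wild type (Acvr1+/+) and the other group of 3 was heterozygous for the R206H allele (Acvr1R206H/+), the change found in fibrodysplasia ossificans progressiva, a disease in which muscle and connective tissue turn to bone, and Acvr1 encodes a receptor for bone morphogenetic proteins. The design text calls the libraries biological replicates. The sources used here do not give the strain, the litters or the number of embryos behind a library, so the p-values measure the spread between these libraries.

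Cholesterol is made from acetyl-CoA through mevalonate and farnesyl diphosphate, then squalene, lanosterol and a chain of sterol intermediates. When sterol in the endoplasmic reticulum is low, SCAP carries SREBP to the Golgi, where it is cut and released as a transcription factor for the enzymes of this route. When sterol is plentiful, INSIG proteins hold SCAP and SREBP back, and oxysterols activate LXR, which switches on genes for sterol export. Fibroblasts also take up cholesterol in lipoproteins from serum.

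The question of the series was which transcripts differ with the mutation. The libraries held an estimated 17483547 to 24550250 assigned reads or read pairs. Levels are in TPM, the share of a library's transcripts that comes from a gene, scaled by gene length, so that genes can be compared by level. Differences are R206H minus wild type on log2(TPM + 1), a scale that shrinks the change of genes at low levels, with the standard error (SE) from limma. Ratios are of mean TPM, and each SD has n = 3. A gene is called where its limma p, adjusted by Benjamini-Hochberg over all 14818 genes tested, is under 0.05. Fibroblast markers were found in all 6 libraries at unlike levels, with Vim at 2812 to 3485 TPM and Col1a1 at 1501 to 5722. Pdgfra had 34.7 to 83.4 TPM and Lum 9.14 to 70.35, and the epithelial marker Krt19 had 143 to 327.2. Wild-type library 1 stood apart on the second principal component (34.1, against -16.3 to 4.8 in the others) and held 38.3 TPM of 7 summed endothelial markers, against 15.7 to 21.5. Acvr1 had 43.9, 47.3 and 42 TPM in R206H against 35.7, 34.6 and 33.7 in wild type, and since the allele differs in its protein sequence, this level is no check of the genotype.

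The promoters of the sterol genes were compared first, because their sequence played no part in choosing the genes. RefSeq promoter windows (GRCm38.p6, 250 bases before to 50 after a start) were found for 25 of the 31 genes. Promoters of Fdps, Fdft1, Sqle, Stard4, Npc1 and Abcg1 were not analysed here. The sequences below are the 250 bases before the start, read along the gene, and the capitals mark the letters CACNCCAC, the core of the classical sterol regulatory element, and CCAAT, the box bound by NF-Y, a factor that works beside SREBP, each on either strand. Hmgcs1, Acat2 and Insig1 are shown as the genes with the sterol element core, Mvk as the promoter with the most CCAAT boxes, Nsdhl and Mylip as called genes, and Ggps1 as an enzyme gene whose groups overlapped.
Hmgcs1 (chr13:119690101-119690350, plus strand): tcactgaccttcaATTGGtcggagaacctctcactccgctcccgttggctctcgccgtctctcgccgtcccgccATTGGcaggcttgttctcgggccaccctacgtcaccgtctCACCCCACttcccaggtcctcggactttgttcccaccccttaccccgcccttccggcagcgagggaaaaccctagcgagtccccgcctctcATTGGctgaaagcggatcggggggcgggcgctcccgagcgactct
Acat2 (chr17:12960726-12960975, minus strand): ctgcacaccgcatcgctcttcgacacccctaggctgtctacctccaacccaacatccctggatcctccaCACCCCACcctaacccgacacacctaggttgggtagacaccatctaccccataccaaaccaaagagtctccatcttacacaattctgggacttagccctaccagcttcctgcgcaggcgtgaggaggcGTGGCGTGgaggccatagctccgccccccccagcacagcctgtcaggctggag
Insig1 (chr5:28071162-28071411, plus strand): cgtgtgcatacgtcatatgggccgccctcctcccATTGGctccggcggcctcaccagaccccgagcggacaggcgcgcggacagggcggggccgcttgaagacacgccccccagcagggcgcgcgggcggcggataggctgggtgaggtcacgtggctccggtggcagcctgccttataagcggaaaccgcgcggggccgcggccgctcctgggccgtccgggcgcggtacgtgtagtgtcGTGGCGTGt
Mvk (chr5:114444019-114444268, plus strand): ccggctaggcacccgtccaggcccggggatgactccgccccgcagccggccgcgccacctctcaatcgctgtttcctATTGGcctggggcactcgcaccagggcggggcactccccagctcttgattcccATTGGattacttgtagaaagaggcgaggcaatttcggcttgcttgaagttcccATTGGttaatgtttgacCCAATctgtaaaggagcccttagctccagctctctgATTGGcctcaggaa
Nsdhl (chrX:72918271-72918520, plus strand): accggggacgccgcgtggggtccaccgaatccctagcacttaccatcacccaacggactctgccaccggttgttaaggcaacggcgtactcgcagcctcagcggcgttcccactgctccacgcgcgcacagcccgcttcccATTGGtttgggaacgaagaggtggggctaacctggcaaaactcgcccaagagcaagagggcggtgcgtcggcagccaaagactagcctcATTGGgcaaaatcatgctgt
Mylip (chr13:45389492-45389741, plus strand): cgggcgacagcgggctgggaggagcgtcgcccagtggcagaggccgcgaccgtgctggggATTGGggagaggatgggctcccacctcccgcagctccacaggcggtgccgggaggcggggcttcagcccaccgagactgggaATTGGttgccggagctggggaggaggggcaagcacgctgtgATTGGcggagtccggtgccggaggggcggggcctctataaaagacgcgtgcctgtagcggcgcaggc
Ggps1 (chr13:14063489-14063738, minus strand): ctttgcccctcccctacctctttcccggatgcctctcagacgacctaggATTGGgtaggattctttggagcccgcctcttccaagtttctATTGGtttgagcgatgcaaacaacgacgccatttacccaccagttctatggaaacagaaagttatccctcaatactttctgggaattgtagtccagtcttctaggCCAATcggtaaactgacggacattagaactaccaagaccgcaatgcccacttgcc
The longer letters TCACNCCAC were found in 1 of the 25 genes, Hmgcs1, beside 1.44% of the genes tested in the libraries that had a window. There the match TCACCCCAC began 137 bases before the start. The core alone, which the longer letters contain, was found in 3 of 25 genes (12%), Hmgcs1, Acat2 and Insig1, beside 7.72%. CCAAT was found in 21 of 25 (84%) beside 42.8%, and in 15 of the 16 enzyme genes with a window. Acat2 was the enzyme gene without it. Mvk held 5 such boxes in its whole window, Hmgcs1 and Nsdhl 4 each, and Ggps1 and Mylip 3 each, so Ggps1, whose groups overlapped, held as many as Mylip. GGGCGG, the GC box, was found in 22 of 25 (88%) beside 69.4%. The LXR element, searched as the exact repeat of AGGTCA with 4 bases between, was in no window of the 25 and in 0.0148% of all 27025 genes with a window. All letters were searched exactly and on both strands, a gene with several starts counted once if any window matched, and a match is a description of these letters only.

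The 19 enzyme genes together had 1269, 1614 and 1885 TPM in R206H libraries 1, 2 and 3, against 1014, 1041 and 881 in wild-type libraries 1, 2 and 3, and the mean was 1.62 times the wild-type mean. No wild-type sum reached the lowest R206H sum. With limma, 3 of the 19 enzyme genes and 4 of all 31 genes were called higher, and none of the 31 was called lower. Of all genes tested, 2.04% were called, 1.26% higher and 0.79% lower. At an unadjusted p under 0.05 there were 26 higher (background: 14.4%) and 1 lower (background: 11.7%). The 3 libraries of R206H all lay above those of wild type in 22 genes (background: 17.9%) and below them in 1 (background: 15%). At an adjusted p under 0.10, with the 4 called genes included, 19 of the 31 were higher (background: 6.9%) and none lower (background: 5.16%). Limma voom on reads rebuilt from the TPM values called 16 higher and none lower, where 8.73% of all genes were called, 4.61% higher and 4.13% lower. The median difference was 0.69 over the 19 enzymes, 0.46 over the SREBP regulators, 0.25 over the transport genes and 0.32 over the LXR and export genes, beside 0.02 over all genes tested. Since the rule used this contrast, nothing is read from these counts.

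**Figure D1:**
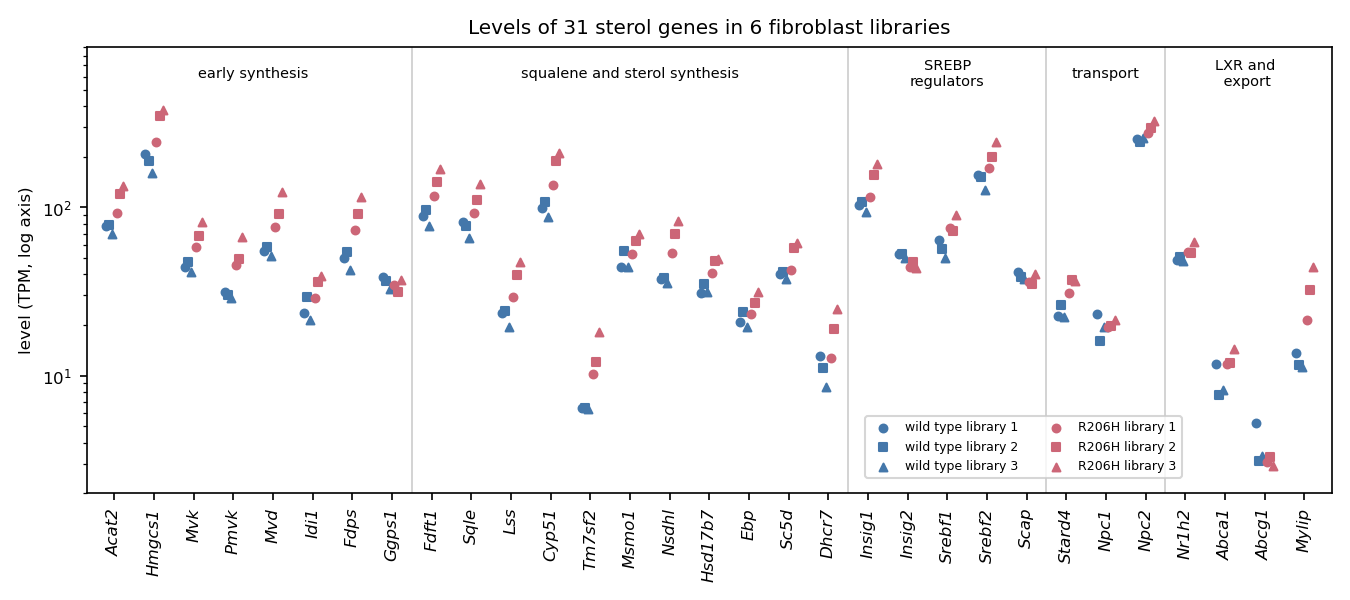
Level of each of the 31 genes (TPM, log axis) in wild-type libraries (blue) and R206H libraries (red), 1 point per library, ordered by role along the horizontal axis. In 22 genes the 3 R206H points lie above the 3 wild-type points, and R206H library 3 (red triangle) is the highest R206H point in all 19 enzyme genes.

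Of the 8 enzyme genes of the early route, 2 rose, Pmvk and Fdps, and the other 6 did not pass. Pmvk encodes phosphomevalonate kinase and had 31.6, 30.2 and 29 TPM in wild type against 45.7, 49.3 and 66.7 in R206H. The groups did not overlap, and the ratio was 1.78 (log2 difference 0.79, SE 0.137, limma adjusted p = 0.0476). Fdps, which encodes farnesyl diphosphate synthase, had 49.8, 54.7 and 42.7 TPM against 73.3, 91.6 and 115.6. Here too every R206H library was above every wild-type library, at a ratio of 1.91 (log2 difference 0.90, SE 0.168, limma adjusted p = 0.0499), just inside the threshold. Fdps shares 1124 exonic bases (26.7% of its exons) with Gm43738 on the same strand. That gene was listed at a mean of 0.00935 TPM, and the effect of the overlap on the Fdps value was not tested. Hmgcs1, the cytosolic HMG-CoA synthase and the most abundant of the enzyme transcripts, had 208.4, 190.1 and 160 TPM in wild type and 246.3, 348.7 and 381.9 in R206H. Its difference of 0.79 (SE 0.172) did not pass (limma adjusted p = 0.0618). Mvk, mevalonate kinase, and Mvd, which decarboxylates mevalonate diphosphate, stood at ratios of 1.57 and 1.78, with adjusted p = 0.0524 and 0.0571 from limma. In both genes the 2 groups were apart: Mvk ran from 41.3 to 47.3 TPM in wild type and 58.4 to 81.9 in R206H, and Mvd from 51.2 to 58.3 and 77 to 124.4. Acat2, the cytosolic acetoacetyl-CoA thiolase that starts the route, had 75.1 ± 4.62 TPM against 115.1 ± 21 (limma adjusted p = 0.0626). Its close copy Acat3 was listed at only 0.806 to 2.46 TPM, but reads that fit both cannot be told apart here.

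The last early enzymes divided. Idi1, isopentenyl diphosphate isomerase, had a ratio of 1.40 with overlapping groups, since R206H library 1 had 29.1 TPM and wild-type library 2 had 29.3. Ggps1 turns farnesyl diphosphate into geranylgeranyl diphosphate for protein prenylation, a branch that leaves the sterol route. It had 38.3, 36.7 and 32.6 TPM in wild type and 34.4, 31.6 and 36.9 in R206H, with a log2 value of -0.06 (95% interval -0.27 to 0.15). It was the 1 enzyme gene of 19 without a positive difference.

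Of the 11 enzyme genes from squalene onwards, 1 rose, Nsdhl, and the other 10 did not pass. All 11 differences were positive, and in 8 every R206H library lay above every wild-type library (background: 17.9%). Nsdhl, a sterol dehydrogenase in the removal of methyl groups at carbon 4, had 37.4, 38 and 35.3 TPM in wild type and 53.9, 69.1 and 82.8 in R206H (ratio 1.86, log2 difference 0.86, SE 0.144, limma adjusted p = 0.0476). The wild-type values lay close together, and the R206H values were spread widely above them. Cyp51, the demethylase of lanosterol, had 99.2, 107.2 and 87.3 TPM against 135.7, 188.7 and 212, a ratio of 1.83 that missed the threshold (limma adjusted p = 0.0511). Fdft1, squalene synthase, and Sqle, squalene epoxidase, which make the first molecules committed to sterol, had ratios of 1.64 and 1.52, each with the groups apart. Ctsb, a far more abundant gene, shares 774 exonic bases with Fdft1 on the opposite strand (18.3% of its exons) and had 478.7 against 410.5 TPM, and its part in the Fdft1 value was not tested. Lss, which closes squalene epoxide into lanosterol, had 22.5 ± 2.54 TPM against 38.8 ± 8.91.

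Tm7sf2, a sterol reductase, had the largest ratio of the 19 enzymes and the lowest level. It had 6.45, 6.41 and 6.32 TPM in wild type and 10.2, 12.1 and 18.2 in R206H (ratio 2.11, log2 difference 0.93, SE 0.194, limma adjusted p = 0.059). The size of this ratio rests in part on R206H library 3, and without it the ratio was 1.74. Tm7sf2 shares 532 exonic bases with Vps51 on the same strand, which had 20.5 TPM in wild type and 19.8 in R206H. Hsd17b7, a sterol ketoreductase, had a ratio of 1.42 with the groups apart (limma adjusted p = 0.0508). Among the other enzymes of this stretch, Msmo1, a methylsterol oxidase, Ebp, a sterol isomerase, and Sc5d, a desaturase, had ratios of 1.29, 1.27 and 1.36. Dhcr7, the final reductase of 1 branch of the route, had 13, 11.1 and 8.54 TPM against 12.7, 18.9 and 24.8. R206H library 1 lay inside the wild-type range for Dhcr7, so its ratio of 1.73 has a wide interval (0.13 to 1.29 on the log2 scale).

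**Figure D2:**
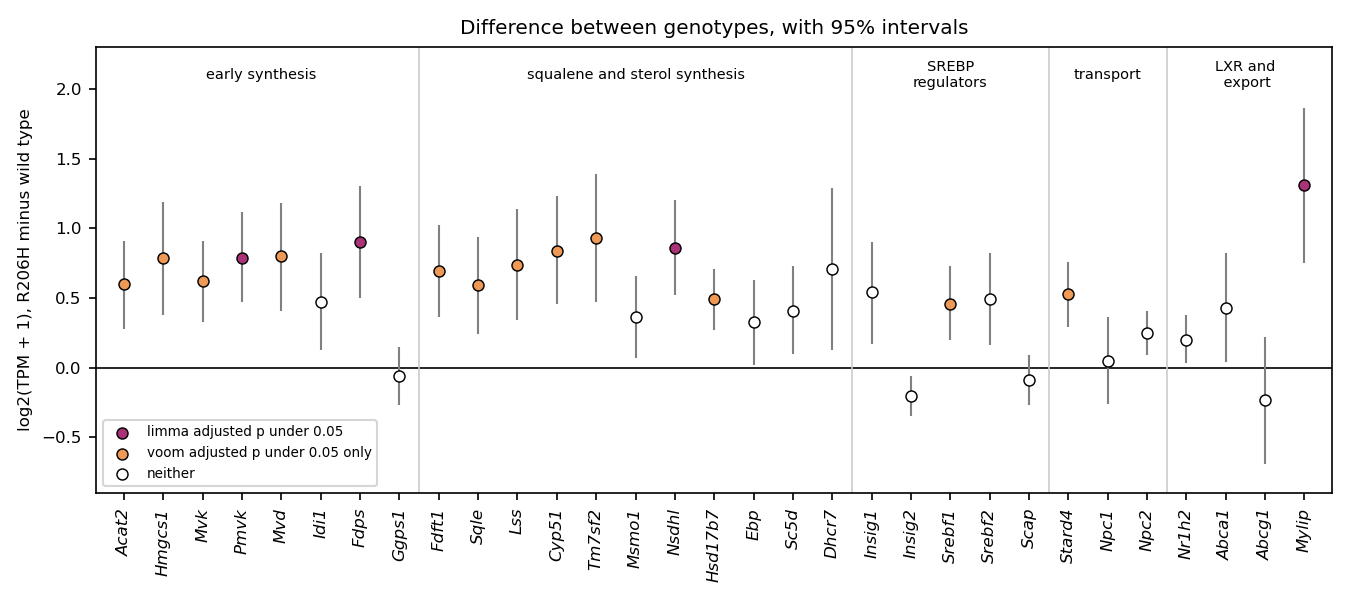
Difference between genotypes for each gene on log2(TPM + 1), R206H minus wild type, with the 95% interval from limma, and fill showing which test called it. Mylip, Fdps, Nsdhl and Pmvk are the 4 limma calls, the other enzyme genes except Ggps1 lie above 0, and Insig2, Scap, Ggps1 and Abcg1 lie below 0.

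None of the 5 SREBP regulators was called by limma. At an unadjusted p under 0.05, 3 were higher (background: 14.4%) and 1 lower (background: 11.7%), and voom called 1, Srebf1, higher (background: 4.61%). Srebf2, whose product is the SREBP most tied to cholesterol genes, had 155.7, 151.8 and 126.7 TPM in wild type and 170.5, 200.5 and 245 in R206H (ratio 1.42, limma adjusted p = 0.0923). Srebf1, whose products act more on fatty acid genes, had 64.2, 56.6 and 50.4 TPM against 75, 72.7 and 89.6 (ratio 1.39, limma adjusted p = 0.0722). In both genes every R206H library was above every wild-type library. The table gives 1 value per gene, so the forms of Srebf1 from different starts are summed.

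The 2 INSIG genes stood on opposite sides. Insig1, itself a known SREBP target, had 103.7, 107.2 and 94.4 TPM in wild type and 114.9, 155.3 and 181.1 in R206H, a ratio of 1.48 (log2 difference 0.54, SE 0.156, limma adjusted p = 0.0949). Insig2, which does not depend on SREBP in the same way, had 52.8, 53 and 49.8 TPM in wild type and 44.1, 47.1 and 43.7 in R206H, a log2 value of -0.20 (SE 0.061, limma adjusted p = 0.1). The groups did not overlap in either gene, and neither passed. Insig1 was the more abundant of the pair in each library. Scap, the escort of SREBP, had 39.3 ± 2.03 TPM against 37 ± 2.61 with overlapping groups and a log2 value of -0.09 (95% interval -0.27 to 0.09).

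None of the 3 transport genes was called by limma. At an unadjusted p under 0.05, 2 were higher (background: 14.4%), and voom called 1 higher, Stard4 (background: 4.61%). Stard4 carries sterol between membranes and is a known SREBP target. It had 22.8, 26.4 and 22.3 TPM in wild type and 30.9, 37 and 36.4 in R206H (ratio 1.46, limma adjusted p = 0.0508), with the groups apart. Npc2, the soluble lysosomal protein that takes up cholesterol from lipoproteins, was the most abundant of the 31 genes in wild type at 252.5 ± 6.76 TPM, against 300.5 ± 24 in R206H (limma adjusted p = 0.0852). Npc1, its membrane partner, had 23.4, 16.1 and 19.5 TPM against 19.5, 19.7 and 21.4, with a log2 value of 0.05 (95% interval -0.26 to 0.36). The sign of the Npc1 value is not settled: it was -0.01 after quantile normalization and -0.08 without wild-type library 2.

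Among the 4 LXR and export genes, Mylip rose and the other 3 did not pass. Mylip encodes a ubiquitin ligase, also called IDOL, that marks lipoprotein receptors for breakdown and is induced by LXR. It had 13.6, 11.6 and 11.2 TPM in wild type and 21.6, 32.5 and 44.1 in R206H, at 2.69 times the wild-type mean (log2 difference 1.31, SE 0.235, limma adjusted p = 0.0476). This was the largest difference of the 31 genes, and its lowest R206H library was well above the highest wild-type library. The sterol exporters Abca1 and Abcg1 did not pass, and their difference from Mylip was not tested. Abca1, which loads cholesterol onto lipid-poor apolipoproteins, had 11.7, 7.72 and 8.23 TPM against 11.8, 11.8 and 14.4 (ratio 1.37, log2 difference 0.43, 95% interval 0.04 to 0.82, limma adjusted p = 0.159). Wild-type library 1 lay just under the lowest R206H library for Abca1. Abcg1, which moves sterol to larger lipoproteins, had 5.21, 3.13 and 3.32 TPM against 3.07, 3.3 and 2.9, with a log2 value of -0.23 (95% interval -0.69 to 0.22). Wild-type library 1, the one with the most endothelial RNA, held the highest values of Abca1 and Abcg1 among wild-type libraries, and the part of those cells in the values was not tested. Nr1h2, the gene of the LXR beta receptor, had 49.1 ± 1.54 TPM against 56.8 ± 4.54 (limma adjusted p = 0.139).

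The calls did not hold when any library other than R206H library 1 was left out. Each such fit also has fewer libraries and degrees of freedom, and the part of this in the lost calls was not tested. None of Pmvk, Fdps, Nsdhl and Mylip passed with limma without wild-type library 1, 2 or 3 or without R206H library 2 or 3, each in turn, and no other of the 31 genes did. Without R206H library 1, 18 of the 31 passed, 14 of them enzyme genes, and 722 of all 14818 genes tested were called in that fit. Calls over all genes also moved in the other fits. They were 288, 5 and 1 without wild-type library 1, 2 and 3, and 0 and 1 without R206H library 2 and 3. Leaving out any 1 library changed the ratios of the 31 genes by at most 1.21 times. Among the largest moves, Tm7sf2 went from 2.11 to 1.74 and Mylip from 2.695 to 2.227 without R206H library 3. Abcg1 went from 0.795 to 0.959 without wild-type library 1.

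The spread between libraries of the same genotype was not itself used to choose the genes, though it was not independent of that choice. The enzymes shared this spread. R206H library 3 had the highest R206H level of all 19 enzyme genes, and R206H library 1 the lowest of 18. Both held for 18 of 19 (94.7%), beside 25.1% of all genes tested. Wild-type library 3 had the lowest wild-type level of 17 of 19 (89.5%), beside 32.6%. For the enzymes, R206H library 3 stood at 1.07 to 1.95 times R206H library 1, with a median of 1.46, and at a median of 1.94 times the wild-type mean, against 1.31 for R206H library 1. So the difference between R206H libraries was of the same order as the difference between the genotypes. After the mean of each genotype was taken off, each enzyme gene was compared with the median of the other 18 over the 6 libraries. Pearson's r ran from 0.43 for Ggps1 to 0.99 for Lss, with a median of 0.94, beside a median of 0.10 over all genes tested against the median of the enzymes. An r over 0.9 was reached by 13 of the 19 enzymes, beside 3.5% of all genes tested. Insig1 had an r of 0.99, Srebf2 of 0.96 and Mylip of 0.93. The other genes were graded below these, with Stard4 at 0.80, Npc2 at 0.77, Nr1h2 at 0.76, Scap at 0.64 and Srebf1 at 0.63. Lower still were Abca1 at 0.38, Insig2 at 0.23, Npc1 at 0.11 and Abcg1 at -0.03. These r values describe 6 libraries that share RNA, depth and cell mix across all genes, with 4 degrees of freedom left. The order was not particular to sterol genes: the first principal component of all genes placed R206H libraries 1, 2 and 3 at 7.2, 20.7 and 39.5. It placed wild-type libraries 1, 2 and 3 at -18.0, -20.3 and -29.1, so it followed genotype and library order together. Genes picked with a higher level in R206H known can share this order through that choice. The shares above stand beside all genes tested, and other genes higher in R206H were not compared. The fibroblast marker Col1a1 had 3975, 4947 and 5722 TPM there and 3212, 1929 and 1501 in wild type, while the 10 summed epithelial markers had 399.5, 287.8 and 197.1 TPM. Their part in the shared spread was not tested.

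**Figure D3:**
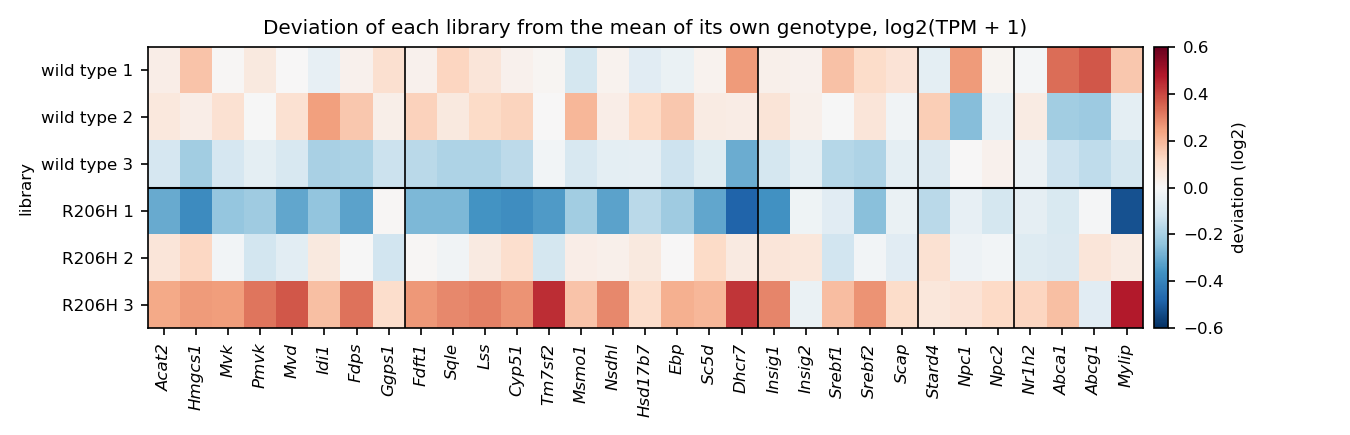
Deviation of each library from the mean of its own genotype on log2(TPM + 1) (colour scale, red above and blue below), for the 31 genes in columns by role and the 6 libraries in rows. R206H library 1 is blue and R206H library 3 red across the enzyme genes other than Ggps1, as well as in Insig1, Srebf2 and Mylip, and wild-type library 3 is a paler blue.

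Other genes of the pathway were listed from textbook roles, and their counts stand beside the same 1.26% higher and 0.79% lower over all genes tested. The shares were 14.4% higher and 11.7% lower at an unadjusted p under 0.05, and 4.61% higher and 4.13% lower with voom. Of 10 genes of oxysterols and LXR partners, 3 rose and none was called lower, with a median of 0.30. Smpdl3a, a phosphodiesterase induced by LXR, had 10.3, 10.4 and 10.5 TPM in wild type and 15.2, 17.1 and 15.7 in R206H (limma adjusted p = 0.0454). Lpcat3, an LXR-induced enzyme of phospholipid remodelling, rose from 58.8 ± 2.32 to 84.5 ± 10.2 TPM (limma adjusted p = 0.0483). Cyp7b1, which breaks down oxysterols, had 3.62, 2.93 and 1.48 TPM against 7.18, 8.82 and 11.8 and was 3.46 times higher (limma adjusted p = 0.0476). The other 7 did not pass. Among them Pltp and Arl4c, which are also induced by LXR, had log2 values of 0.35 and 0.08 (limma adjusted p = 0.131 and 0.578). Ch25h, which makes an oxysterol, had 17.3, 10.8 and 10.7 TPM in wild type and 7.98, 9.17 and 6.77 in R206H, lower without overlap but not called (limma adjusted p = 0.118).

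The branch that leads from farnesyl diphosphate to ubiquinone, dolichol and prenylated proteins had 6 positive and 7 negative differences. Of its 13 genes, limma and voom each called 1 lower and none higher. At an unadjusted p under 0.05 there were 4 lower (background: 11.7%) and none higher (background: 14.4%). All R206H libraries lay below wild type in 4 genes (background: 15%) and above it in 1 (background: 17.9%). Pdss1, which builds the side chain of ubiquinone, fell from 13.6 ± 0.643 to 9.15 ± 0.733 TPM (limma adjusted p = 0.048). Nus1, a subunit of the enzyme that makes dolichol chains, had a log2 value of -0.19 (adjusted p = 0.0819 with limma), and Coq2, an enzyme of ubiquinone synthesis, one of -0.16 (adjusted p = 0.179 with limma). The median of the branch was -0.03.

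None of 9 measured genes of SREBP processing and sterol-regulated degradation was called by limma, with 1 lower at an unadjusted p under 0.05 and none by voom. Their median was 0.00, and the SREBP proteases Mbtps1 and Mbtps2 had log2 values of 0.20 and -0.18. Rnf139, a ubiquitin ligase of the endoplasmic reticulum, had a log2 value of 0.18, and Erlin1, a membrane protein of the same compartment, one of -0.16. Of 10 genes of sterol storage and transfer none was called by limma, with 1 higher and 1 lower at an unadjusted p under 0.05 and none by voom. Tmem97, a sterol-regulated membrane protein, had 134.8 ± 4.68 TPM against 153 ± 5.98, Soat1, which esterifies cholesterol, had 40.6 ± 2.11 against 33 ± 4.07, and Osbp, a sterol transfer protein, had a log2 value of 0.13. Of 7 genes of lipoprotein receptors and their partners none was called by limma, with 2 higher at an unadjusted p under 0.05 and none by voom. Their median was 0.22, and the chaperone Lrpap1, the receptor Scarb1 and the receptor Lrp1 had log2 values of 0.34, 0.27 and 0.22.

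**Figure D4:**
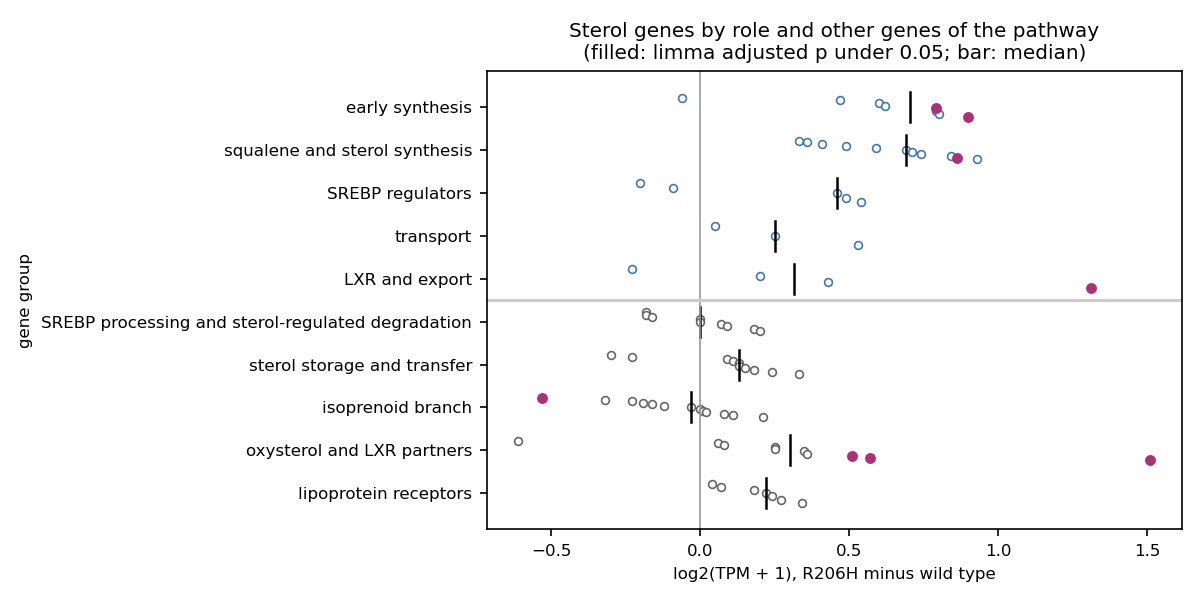
Difference between genotypes for single genes (log2(TPM + 1), R206H minus wild type) by gene group, the 31 sterol genes above the line and other genes of the pathway below it, with bars at medians and filled points for limma calls. The enzyme groups have medians of 0.71 and 0.69, the isoprenoid branch has -0.03 and SREBP processing 0.00.

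Other cell types and states moved with the genotypes in the same libraries. Summed over 10 fibroblast markers, R206H libraries held 10940 to 13500 TPM and wild-type libraries 7173 to 9340, and none of these markers was called by limma. Of them, 7 were higher at an unadjusted p under 0.05 (background: 14.4%), and voom called 7 higher (background: 4.61%). The 10 epithelial markers summed to 197.1 to 399.5 TPM against 544.2 to 637.6, with 2 called lower by limma (background: 0.79%). All 10 were lower at an unadjusted p under 0.05 (background: 11.7%), and voom called 6 lower (background: 4.13%). None of the 10 was at 0 in any library. The 8 proliferation markers summed to 861.4 to 908.8 TPM against 978.8 to 1045, with none called by limma. Of them, 5 were lower at an unadjusted p under 0.05 (background: 11.7%), and voom called 3 lower (background: 4.13%). Markers of cells that make much sterol or steroid were low. The 8 hepatocyte markers summed to 2.48 to 19.4 TPM in R206H, the highest in library 1, where Afp had 9.29 TPM, and 2.4 to 3.21 in wild type, with Alb and Ttr at 0 in all wild-type libraries and Serpina1a at 0 in all 6. The 6 steroidogenic markers, among them the widely expressed Fdx1, summed to 12.9 to 21.6 TPM and 15.2 to 17.1. The share of TPM from the mitochondrial genome was 3.43% to 3.85% in the mutant libraries and 4.16% to 4.57% in the controls. In these bulk libraries a change in the share of a cell type and a change of RNA per cell cannot be told apart, and the part of these lists in the sterol values was not tested.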

How the data were processed

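RNA of 3 wild-type and 3 R206H fibroblast libraries, freed of ribosomal RNA, was sequenced in pairs of 150 bp reads, per the labels' protocols. The authors deposited 1 table of TPM for Ensembl genes, and each library sums to 1000000. Per the submitters' processing notes, the builds were mm10 and GRCm38, and the tools, without roles or versions, were STAR, Subread, featureCounts, Trimmomatic and DESeq2. The sources used here do not give the gene lengths, annotation release or strand setting, so overlapping and antisense genes cannot be told apart.

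The test covered the 14818 genes with TPM of at least 1 in 3 or more libraries. It was limma 3.58.1 in R 4.3.3 (lmFit, then eBayes with trend) on log2(TPM + 1), without covariates and two-sided, with Benjamini-Hochberg adjustment at 0.05, and the 95% intervals come from it. Depth and the reads for voom were rebuilt from TPM and GENCODE M21 exon lengths, and 91.2% to 91.5% of non-zero values under 100 reads were whole within 0.05. Tests were checked on simulated reads. These were drawn for each gene on its own, with the same variability for every gene. The check therefore does not cover the spread that genes share between these libraries. Exonic overlaps came from GENCODE M21 and promoters from RefSeq (GRCm38.p6). Tables were joined in Python 3.11.15 (pandas 2.3.3) and figures drawn with matplotlib 3.10.9. A planned comparison of protein sequences was not run.

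The sterol genes and all lists were chosen with earlier results of these data known. All 31 are named, with up to 3 genes of each further list by smallest unadjusted p, of which 1 is not reported here. Mbtps1, Mbtps2, Pltp, Arl4c, Ch25h and the marker genes given with values were named after their values were seen. Same-numbered libraries did not deviate together (r of 0.018, 0.060 and -0.028), so the numbers were not used as pairs. The closing section gives the 14 alternatives.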

Additional observations from a re-analysis of the deposited data

How the results depend on the processing

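Over the 14 alternatives, 30 of the 31 genes kept their direction wherever they were fitted (Abcg1 did not pass the filter at TPM 5), and Npc1 had log2 values of -0.01 after quantile normalization and -0.08 to 0.18 with a library left out, the lowest without wild-type library 2. The median differences of all gene groups stayed within the spread between libraries, that of the 19 enzymes between 0.50 (without R206H library 3) and 0.83 (without R206H library 1). With a library left out this bound is weak, since dropping 1 of 3 libraries moves a mean by less than that spread. The number of genes called did not stay. Of the 31 sterol genes, 4 were called higher, against 0 with a pseudocount of 0.1, 2 with a pseudocount of 5, 0 with no filter, 13 with a filter at TPM 5, 2 after quantile normalization and 16 with voom. Of the 19 enzymes, 3 were called, against 0 with a pseudocount of 0.1, 0 with no filter, 11 with the filter at TPM 5 and 13 with voom. With the replicate number as a block, where the labels give a shared number and no shared source, 0 of the 31 and 0 of the 19 were called, with fewer degrees of freedom. Leaving out each library in turn gave 0 to 18 of the 31 and 0 to 14 of the 19. None of the 31 was called lower in any of these fits. The calls over all genes moved too: 303 with the settings of the report, 129 and 231 with pseudocounts of 0.1 and 5, 2 with no filter, 587 with the filter at TPM 5, 288 after median-of-ratios scaling, 200 after quantile normalization, 1291 with voom, 0 with the block and 0 to 722 with a library left out. The filters change how many genes the adjustment covers, and for the other shifts the cause was not tested. With 3 libraries a group and many adjusted p close to 0.05, which single sterol genes pass is uncertain, while 30 of the 31 kept their direction. The enzyme gene with the fewest rebuilt reads had at least 134 in each library, and the effect of depth was not tested.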
